A study of Mus musculus with 6 samples.

Results

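Proteasome subunits and regulators are described here in mouse embryonic stem cells (mESC) with and without the *Tet* genes. The 46 genes were taken from the 22380 gene identifiers of the deposited tables by name, as protein-coding genes whose symbol begins with Psma to Psmg followed by a digit, without the immunoproteasome subunits *Psmb8*, *Psmb9* and *Psmb10* and without *Psmc3ip*, which is no proteasome gene. They comprise 16 genes of the core particle (8 alpha and 8 beta subunits), 17 of the regulatory particle (6 ATPases of the base, 3 other subunits of the base and 8 subunits of the lid) and 13 regulators (7 assembly chaperones, 5 activators and 1 inhibitor). The rule uses no measured value.

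The study compared 3 *Ctrl* and 3 *Tet iTKO* lines at day 6.5 after the start of treatment. Every line carried 1 *Cre-ERT2* allele, a tamoxifen-inducible recombinase under a ubiquitously active promoter, and 1 *Rosa26* allele with an H2B-EGFP reporter that Cre switches on. *Ctrl* lines had no floxed *Tet* allele, and *Tet iTKO* lines were *Tet1*, *Tet2* and *Tet3* fl/fl, so that treatment deleted exons of all 3 genes, in *Tet1* and *Tet2* those for the catalytic domain. TET enzymes oxidize 5-methylcytosine in DNA. Both groups received 1 µM 4-hydroxytamoxifen (4-OHT, called tamoxifen in the labels) for 2.5 days and grew for 4 further days in 2i medium on feeder fibroblasts. Live CD326+ GFP+ Thy1.2- cells were then sorted, and their poly(A) RNA was sequenced by Smart-Seq2. Each line came from a different embryo, and n = 3 counts lines. The values cover whole genes, so reads in the deleted exons cannot be set apart and do not check the labels: *Tet1* had 696, 682 and 716 normalized counts in *Ctrl* against 787, 895 and 753 in *Tet iTKO* lines, *Tet2* had 249, 170 and 230 against 233, 268 and 211, and *Tet3* had 28, 13 and 13 against 10, 3 and 3.

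The values are read counts divided by a size factor for each library, called normalized counts, and they summed to between 3964824 and 4219665 per library. All 9 embryonic stem cell markers examined were detected in every library, 4 of them, *Pou5f1*, *Nanog*, *Zfp42* and *Dppa5a*, were called lower in *Tet iTKO* lines and 2, *Esrrb* and *Epcam*, higher, and the 9 summed to 31022 to 31210 in *Ctrl* and 26659 to 27670 in *Tet iTKO* lines. Of 10 fibroblast markers, none was at 0 in every line, 4 had enough reads for a test, and *Col1a1*, *Col1a2* and *Col3a1* were higher in *Tet iTKO* lines. The summed level of the 10 was 282 to 296 in *Ctrl* and 488 to 561 in *Tet iTKO* lines, and these collagens made up most of it. Their means were 167, 38 and 26 in *Ctrl* against 311, 85.7 and 67.7. The sorted marker *Thy1* was at 30, 46 and 41 against 47, 35 and 23. Of the markers with too few reads for a test, *Dcn*, *Lum* and *Pdgfrb* had lower means in *Tet iTKO* lines and *Col6a3*, *Postn* and *Fbn1* higher ones. Of 4 blood cell markers, 3 were listed at 0 in every line, *Ptprc* and *Hbb-bt* among them. Fold changes across all genes were higher for longer transcripts (Spearman rho 0.32 over 10457 genes, which share the same libraries) and for transcripts richer in GC (0.25). A second set of fold changes, from which a smooth trend on both properties had been subtracted in each library, is therefore given as corrected values.

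Proteasomes degrade proteins that carry ubiquitin chains. The core particle is a barrel in which inner rings of beta subunits hold the protease sites and outer rings of alpha subunits gate the entry. The regulatory particle caps the barrel, and its lid removes the ubiquitin chain while the ATPase ring of its base unfolds the protein and feeds it in. Chaperones assist the assembly of both particles, and alternative caps can open the barrel without ATP. Proteasome genes are known to be transcribed together, with NFE2L1 (NRF1) raising them through antioxidant response elements when proteasome activity drops, and pluripotent cells are known for active proteasomes.

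Transcripts of most proteasome genes were lower in *Tet iTKO* than in *Ctrl* mESC. Summed over the 46 genes, the *Ctrl* lines had 62711, 63630 and 63021 normalized counts and the *Tet iTKO* lines 48193, 48477 and 49623, which is 77.3% of the *Ctrl* mean. This took proteasome transcripts from 1.49%, 1.51% and 1.49% of all normalized counts in *Ctrl* to 1.22%, 1.22% and 1.24% in *Tet iTKO* lines. Both the sum and the share separated the groups without overlap. In such bulk samples, a lower level in every cell and fewer cells with a high level cannot be told apart. The part of the fibroblast and stem cell markers in these values was not tested.

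Genes were called changed at an adjusted p under 0.05 in limma, fitted to log2(normalized count + 1) and adjusted by Benjamini-Hochberg over the 10524 genes that averaged at least 10. Of the 45 proteasome genes tested, 35 were lower in *Tet iTKO* mESC, none was higher and 10 did not pass, while over all genes tested 18.4% were called lower and 16.4% higher. At an unadjusted p under 0.05 none was higher either. The median log2 fold change was -0.42, with a range from -0.95 to 0.15, against a median of 0.012 over all genes tested. All 3 *Tet iTKO* lines lay below all 3 *Ctrl* lines for 35 of the genes, and over all genes tested this held for 22.9%. After the correction for GC content and length, 19 were lower and 2 higher, with a median of -0.17, and the shares over all genes were 13.3% lower and 12.4% higher. With all libraries scaled to the same total, which moved the median of all genes to 0.10, 31 were lower and 2 higher, against 13.6% lower and 22.0% higher over all genes. Called lower both before and after correction were 18 genes, which lie on 9 chromosomes, with 4 of them on chromosome 2.

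**Figure D1:**
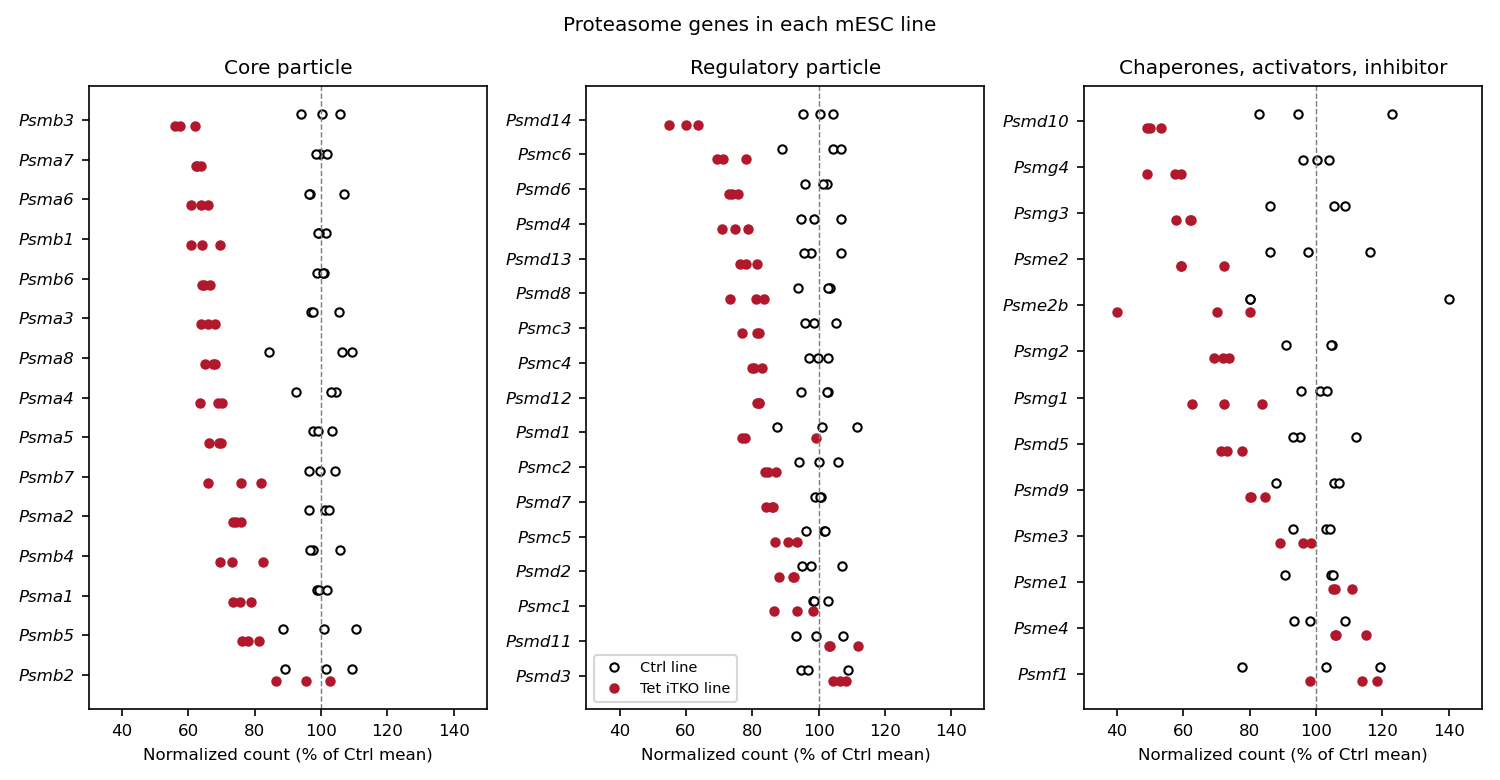
Normalized counts of the 45 proteasome genes with a test, in percent of the gene's mean over the *Ctrl* lines (x axis), with 1 row per gene and panels for the core particle, the regulatory particle and the regulators. Open points are the 3 *Ctrl* lines and filled points the 3 *Tet iTKO* lines; the filled points lie left of the open points for 35 genes, furthest in *Psmd10* and *Psmg4*, and overlap them for the other 10.

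Nearly all core particle genes were lower. Of the 15 tested, 14 were lower and *Psmb2* did not pass, and the median log2 fold change was -0.57 (corrected -0.22, with 8 lower and 1 higher). All 8 alpha subunits, which form the gated outer rings, were lower, with a median of -0.57 and a range from -0.67 to -0.40. After correction 5 of them were lower, *Psma2*, *Psma3*, *Psma5*, *Psma6* and *Psma7*, with corrected values from -0.38 to -0.18.

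*Psma7* (ENSMUSG00000027566.8) was the alpha subunit with the largest fall when all lines were used, from 5516, 5642 and 5457 normalized counts in the *Ctrl* lines to 3451, 3466 and 3540 in the *Tet iTKO* lines. The lines of a group lay close together and the groups far apart, at -0.67 on the log2 scale (SE 0.043, limma adjusted p = 1.24e-14), and at -0.36 after correction (limma adjusted p = 8.14e-09). *Psma6* and *Psma3* came next, with 63.5% and 65.9% of their *Ctrl* means. *Psma4* was at 67.5%, *Psma5* at 68.6%, *Psma2* at 74.5% and *Psma1* at 75.9%. The order depended on the setting. With quantile normalization *Psma8* (-0.57), *Psma6* (-0.55) and *Psma3* (-0.52) fell more than *Psma7* (-0.50), and after correction *Psma3* did (-0.38). The fall of *Psma1* was 0.40 on the log2 scale (SE 0.050) and did not pass after correction (0.0037, limma adjusted p = 0.97), and that of *Psma4* did not pass after it (-0.17, limma adjusted p = 0.15). *Psma4* overlaps the listed gene *AY074887* on the opposite strand, and the libraries do not keep the strand, so reads of both cannot be told apart. HTSeq was run with its strand option on, and how it split such reads cannot be seen in the values. The same holds for *Psmb7*, *Psmc3*, *Psmd1*, *Psmd13* and *Psme1*, which also overlap a listed gene on the opposite strand. *Psma5*, *Psmd3* and *Psmd9* overlap an annotated gene on the opposite strand that the values do not list. *Psmb5*, *Psmd1* and *Psmg3* overlap such an unlisted gene on the same strand. *Psme2b* overlaps a listed gene on the same strand that was at 0 in every line.

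*Psma8*, known as the spermatogenic counterpart of *Psma7*, had 214, 165 and 208 normalized counts in *Ctrl* against 127, 133 and 132 in *Tet iTKO* lines. The highest *Tet iTKO* line stayed below the lowest *Ctrl* line. Its log2 fold change was -0.57 (SE 0.15, limma adjusted p = 0.00211), which did not pass after correction (-0.25, limma adjusted p = 0.214). The transcripts of *Psma7* and *Psma8* share no stretch of 50 bases, the read length, so no read of one aligns to the other without a mismatch.

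Among the beta subunits, 6 of 7 tested were lower, with a median log2 fold change of -0.43 (corrected -0.13, with 3 lower and 1 higher). The catalytic subunits were among them. *Psmb5* (ENSMUSG00000022193.5), which carries the chymotrypsin-like site, had 1486, 1694 and 1858 normalized counts in *Ctrl* against 1312, 1279 and 1363 in *Tet iTKO* lines, and the groups did not overlap although the *Ctrl* lines spread widely. The log2 fold change was -0.34 (SE 0.065, limma adjusted p = 7.21e-05), and -0.058 after correction (limma adjusted p = 0.541). *Psmb6* (ENSMUSG00000018286.6), which carries the caspase-like site, had 4503, 4603 and 4588 in *Ctrl* against 2930, 2956 and 3039 in *Tet iTKO* lines. Here the lines of each group were nearly equal, with a log2 fold change of -0.62 (SE 0.045, limma adjusted p = 3.03e-13) that held after correction (-0.27, limma adjusted p = 6.23e-06). *Psmb7* (ENSMUSG00000026750.5), with the trypsin-like site, had 2032, 1879 and 1945 in *Ctrl* against 1287, 1480 and 1596 in *Tet iTKO* lines, again without overlap. Its log2 fold change was -0.43 (SE 0.064, limma adjusted p = 1.37e-06), and -0.081 after correction (limma adjusted p = 0.347). *Psmb7* overlaps *Nek6* on the opposite strand.

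Of the beta subunits without a protease site, *Psmb3* (ENSMUSG00000069744.7) had the largest fall of the core particle, from 1312, 1475 and 1398 normalized counts in *Ctrl* to 781, 863 and 800 in *Tet iTKO* lines. Every *Tet iTKO* line stood well below every *Ctrl* line, at -0.77 on the log2 scale (SE 0.067, limma adjusted p = 1.59e-11) and -0.38 after correction (limma adjusted p = 2.17e-05). *Psmb1* fell to 64.7% of its *Ctrl* mean and had the largest corrected fall of the core particle (-0.48, limma adjusted p = 1.87e-08). *Psmb4* fell to 75.1%, and its corrected value was -0.13 (limma adjusted p = 0.127). *Psmb2* was the exception, as its normalized counts were 1718 ± 173 (SD, n = 3) against 1629 ± 138 (SD, n = 3), with overlapping lines (-0.075, SE 0.066, limma adjusted p = 0.407), and it was higher after correction (0.34, limma adjusted p = 5.64e-05). *Psmb11*, the catalytic subunit of cortical thymic epithelium, was listed at 0 in all 6 lines and was not tested.

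The promoters of the catalytic subunits are shown because both *Psmb5* and *Psmb6* hold the letters TGACNNNGC of an antioxidant response element, the kind of site NFE2L1 binds. RefSeq promoters of GRCm38.p6, from 250 bases before to 50 after a start site, were at hand for 38 of the 46 genes, *Psmb7* not among them. Both strands were searched, and the capitals mark the match. A gene with several start sites was counted if any of its promoters held the letters. The *Psmb5* stretch is chr14:54618024-54618067 on the minus strand and its match begins 47 bases before the start site. The *Psmb6* stretch is chr11:70525323-70525356 on the plus strand and its match begins 9 bases before it.
Psmb5: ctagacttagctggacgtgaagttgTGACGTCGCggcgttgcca
Psmb6: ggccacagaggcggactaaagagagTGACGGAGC
The same letters were in the promoters of *Psmc6*, *Psmd12*, *Psmd9* and *Psme4*. That makes 6 of 38 proteasome promoters (15.8%), against 17.1% of the 8334 tested genes with a promoter and 14.0% of all 27025 genes in the table.

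Promoters of the core particle are also shown for the letters CCAAT, the core of the CCAAT box, which stood in 5 of 7 alpha subunit promoters. Searched on both strands, CCAAT was in 7 of 12 core particle promoters (58.3%), in 4 of 14 regulatory particle promoters (28.6%) and in 2 of 12 regulator promoters (16.7%), against 43.7% of tested genes and 41.1% of all genes. The stretches for *Psma2* (chr13:14613163-14613202 on the plus strand), *Psma7* (chr2:180042646-180042685 on the minus strand) and *Psmb3* (chr11:97703366-97703405 on the plus strand) carry the match in capitals, 54, 196 and 43 bases before the start site.
Psma2: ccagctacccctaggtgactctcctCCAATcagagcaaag
Psma7: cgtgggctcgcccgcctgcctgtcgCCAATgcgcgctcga
Psmb3: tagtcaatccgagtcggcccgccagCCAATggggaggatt
These matches describe letters in the window and not bound sites.

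The regulatory particle followed with smaller fold changes. Of its 17 genes, 13 were lower and 4 did not pass, with a median log2 fold change of -0.29 and a range from -0.75 to 0.092 (corrected median -0.12, with 6 lower and none higher in limma, and 3 higher at an unadjusted p under 0.05). Of the 6 ATPases that form the unfolding ring, 5 were lower, with a median of -0.26. *Psmc6* had the largest fall of these, to 72.9% of its *Ctrl* mean (-0.45, SE 0.075, limma adjusted p = 9.67e-06), followed by *Psmc3* at 80.2%, *Psmc4* at 81.2% and *Psmc2* at 85.2%. *Psmc5* was at 90.3% (-0.15, limma adjusted p = 0.0279), and 4 of the 6 fits with a line left out no longer called it, with an adjusted p of up to 0.141 without *Tet iTKO* replicate 2. Without *Ctrl* replicate 1, the call of *Psmc2* was lost too (limma adjusted p = 0.0518). *Psmc1*, whose normalized counts were 2128 ± 53.3 (SD, n = 3) against 1975 ± 126 (SD, n = 3), did not pass (-0.11, limma adjusted p = 0.126). After correction *Psmc3* alone of the ATPases was lower (-0.27, limma adjusted p = 7.12e-05), and *Psmc3* overlaps *Slc39a13* on the opposite strand.

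Of the base subunits that are not ATPases, *Psmd4*, a receptor for ubiquitin chains, fell to 74.8% of its *Ctrl* mean (-0.42, SE 0.061, limma adjusted p = 1.26e-06). It was lower after correction as well (-0.34, limma adjusted p = 3.43e-05). The large scaffold subunits *Psmd1* and *Psmd2* were at 84.7% and 90.9%. *Psmd1* passed (-0.24, limma adjusted p = 0.0173), but its lines overlapped, and the call was lost without *Ctrl* replicate 1 or 2 or *Tet iTKO* replicate 2 or 3 (limma adjusted p up to 0.152). For *Psmd2* the groups did not overlap, and it did not pass with all lines (-0.14, limma adjusted p = 0.0557), while it passed after correction (-0.15, limma adjusted p = 0.038) and without *Ctrl* replicate 3 (limma adjusted p = 0.0325). *Psmd1* overlaps *Htr2b* on the opposite strand.

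In the lid, 6 of 8 genes were lower, with a median log2 fold change of -0.31 (corrected -0.12, with 3 lower). *Psmd14* (ENSMUSG00000026914.8), the enzyme that cuts the ubiquitin chain from the substrate, had the largest fall of the regulatory particle, from 747, 817 and 787 normalized counts in *Ctrl* to 498, 431 and 471 in *Tet iTKO* lines. The *Tet iTKO* lines were all far below the *Ctrl* lines, at -0.75 on the log2 scale (SE 0.081, limma adjusted p = 2.38e-09) and -0.41 after correction (limma adjusted p = 0.000122). *Psmd7*, the inactive partner of *Psmd14*, fell to 85.5% of its *Ctrl* mean (-0.23, SE 0.055, limma adjusted p = 0.00138; corrected -0.0074, limma adjusted p = 0.942). The structural lid subunits *Psmd6*, *Psmd8*, *Psmd12* and *Psmd13* fell to between 74.2% and 81.9%. Of these, *Psmd8* (-0.26, limma adjusted p = 0.00143) and *Psmd13* (-0.29, limma adjusted p = 0.000122) were lower after correction, and *Psmd13* overlaps *Sirt3* on the opposite strand.

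The structural lid subunits *Psmd3* and *Psmd11* went against the other lid genes in sign. *Psmd3* had 1467 ± 112 (SD, n = 3) normalized counts in *Ctrl* against 1560 ± 30.1 (SD, n = 3) in *Tet iTKO* lines, and *Psmd11* had 1166 ± 82.9 (SD, n = 3) and 1238 ± 58.9 (SD, n = 3). In both the lines of the groups overlapped, and the log2 fold changes of 0.092 and 0.088 did not pass (limma adjusted p = 0.255 and 0.316). With quantile normalization both were higher, at 0.20 (limma adjusted p = 0.0101) and 0.18 (limma adjusted p = 0.0272), and with equal library totals as well, at 0.18 (limma adjusted p = 0.0203) and 0.17 (limma adjusted p = 0.0361). The corrected value of *Psmd3* was -0.023 (limma adjusted p = 0.821), and that of *Psmd11* was 0.17, just short of a call (limma adjusted p = 0.05001).

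**Figure D2:**
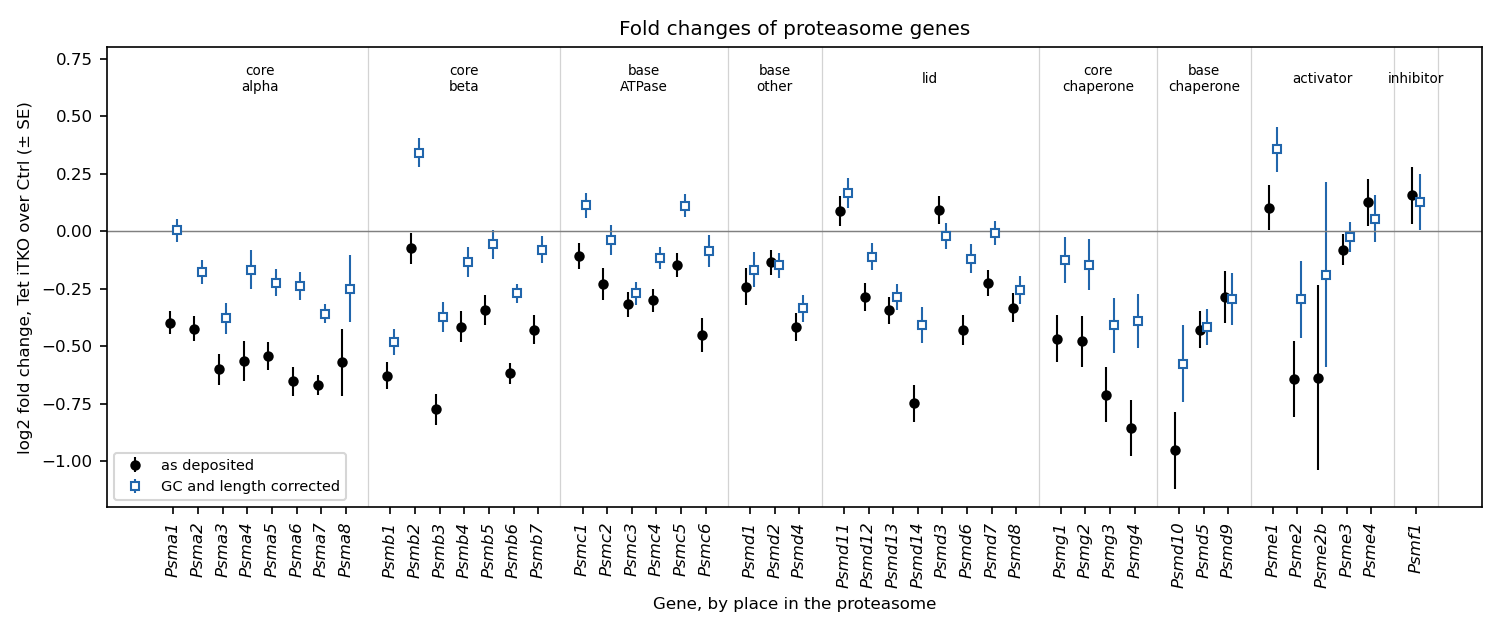
Log2 fold change of *Tet iTKO* over *Ctrl* (y axis, ± SE from limma with 3 lines per group) for the 45 genes tested (x axis), grouped by place in the proteasome. Filled circles are the deposited values and open squares the values corrected for GC content and transcript length; circles of the alpha subunits all lie between -0.67 and -0.40, while most squares lie closer to 0 than their circles and those of *Psma1*, *Psmb2*, *Psmc1* and *Psmc5* lie above 0 where their circles lie below.

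Promoters of the regulatory particle are shown for the letters CCGGAAG, the site that ETS transcription factors bind. Searched on both strands, they stood in 9 of 14 promoters (64.3%), against 1 of 12 in the core particle (8.33%, *Psma6*), 4 of 12 among the regulators (33.3%), 22.2% of tested genes and 9.93% of all genes. Members from the base and the lid are *Psmc1* (chr12:100110149-100110190 on the plus strand), *Psmc2* (chr5:21786698-21786739 on the plus strand), *Psmd2* (chr16:20651601-20651642 on the plus strand), *Psmd6* (chr14:14120974-14121015 on the minus strand), *Psmd11* (chr11:80428579-80428614 on the plus strand) and *Psmd12* (chr11:107479486-107479527 on the plus strand). Their matches, in capitals and read as CTTCCGG where they lie on the other strand, begin 28, 24, 26, 45, 11 and 17 bases before the start site. The *Psmc2* stretch belongs to a start site inside the gene, and so do the CCGGAAG matches of *Psma6*. In the *Psmc2* promoter near the annotated gene start, the match begins 84 bases before the start site.
Psmc1: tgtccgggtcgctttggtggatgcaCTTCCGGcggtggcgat
Psmc2: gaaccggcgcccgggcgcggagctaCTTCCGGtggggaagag
Psmd2: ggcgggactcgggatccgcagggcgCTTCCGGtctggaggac
Psmd6: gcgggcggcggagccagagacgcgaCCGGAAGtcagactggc
Psmd11: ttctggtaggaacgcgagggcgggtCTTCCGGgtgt
Psmd12: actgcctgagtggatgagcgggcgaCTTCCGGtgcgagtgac
*Psmc1*, *Psmd2* and *Psmd11* did not pass the expression test and the other genes shown were lower, so the letters occur in genes of both kinds. CCAAT and CCGGAAG were chosen for the search after the expression values were known, no test of their shares was made, and no matches of different motifs overlapped in these promoters. The number of CG pairs per promoter, the highest where a gene had several, had a median of 19.5 in the core particle. It was 21 in the regulatory particle and 17 among the regulators, against 23 in tested genes. Among the proteasome genes the number ranged from 2 in *Psme2b* to 41 in *Psma7*.

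Core and regulatory particle genes were also summed in each line. The core particle had 30026, 30451 and 30518 normalized counts in *Ctrl* against 20436, 21259 and 21797 in *Tet iTKO* lines, which is 69.8% of the *Ctrl* mean. The regulatory particle had 27969, 28186 and 27660 against 23823, 23220 and 23812, or 84.5%. In neither sum did the groups overlap. The ratio of the core to the regulatory sum was 1.07, 1.08 and 1.10 in *Ctrl* and 0.858, 0.916 and 0.915 in *Tet iTKO* lines, or 1.09 ± 0.016 (SD, n = 3) on average against 0.896 ± 0.033 (SD, n = 3). The ratio was higher in every *Ctrl* line than in any *Tet iTKO* line. On the log2 scale the ratio fell by 0.28.

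**Figure D3:**
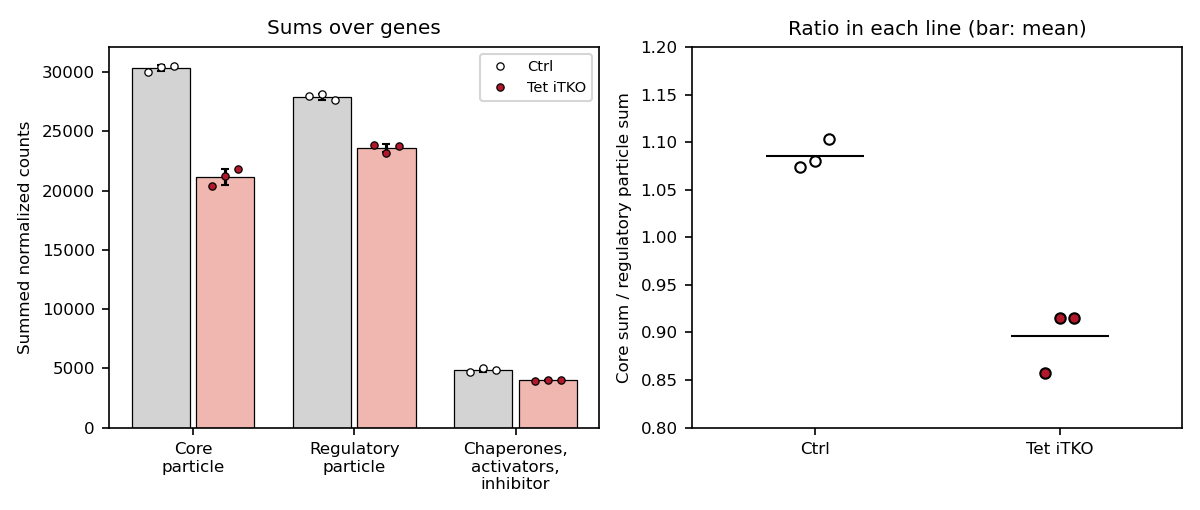
Left, summed normalized counts (y axis) of the core particle, the regulatory particle and the regulators, with bars for the mean of 3 lines, error bars for the SD and points for single lines. Right, the ratio of the core to the regulatory sum in each line, with a line at the mean; *Ctrl* lines sit between 1.07 and 1.10 and *Tet iTKO* lines between 0.858 and 0.916, on an axis that does not start at 0.

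The difference between the particles was smaller after correction. The difference of the median log2 fold changes, core minus regulatory, was -0.28, and it was -0.11 after correction. The core minus regulatory difference of median log2 levels in single lines, another quantity and uncorrected, had an SD of 0.10 between lines of a group. The log2 ratio of the sums had an SD of 0.021 in *Ctrl* and 0.054 in *Tet iTKO* lines. Core transcripts are the shorter ones, with a median length of 1174 bases against 1819 for the regulatory particle and 3074 for all genes tested. Lengths are those of each gene's longest annotated protein-coding transcript, which need not be the one expressed. Among transcripts of 1000 to 1500 bases, the median was -0.54 for 7 core genes, -0.30 for 3 regulatory genes and -0.25 for all 950 genes. Among those of 1500 to 2000 bases, it was -0.60 for 2 core genes, -0.32 for 9 regulatory genes and -0.10 for all 1202 genes. Over both ranges together the core minus regulatory difference was -0.26. These medians rest on few genes and are given without a test.

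In each range of transcript lengths, the median fold change of the proteasome genes lay below that of all genes. Under 1000 bases, 8 proteasome genes had a median of -0.64 against -0.39 for all 545 genes, and between 1000 and 1500 bases 14 had -0.45. Between 1500 and 2000 bases the median of 11 was -0.33, and between 2000 and 3000 bases that of 8 was -0.21 against -0.019 for 2319 genes. Above 3000 bases the 4 proteasome genes had a median of -0.059 against 0.12 for 5441 genes. Across the 45 genes, the fold change and the transcript length had a Spearman rho of 0.53, which was 0.12 for the corrected values; the genes share all 6 libraries. Of the proteasome genes of 1000 to 1500 bases, 92.9% were called lower, against 41.8% of all genes of that length.

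**Figure D4:**
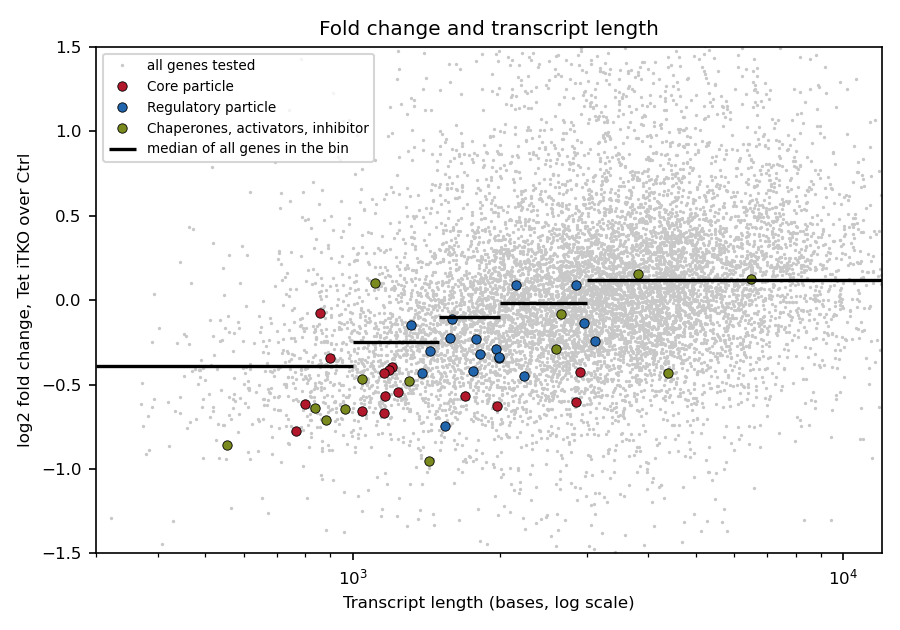
Log2 fold change of *Tet iTKO* over *Ctrl* (y axis) against transcript length in bases (x axis, log scale) for all genes tested (grey) and for core (red), regulatory (blue) and regulator genes (green). Horizontal lines are medians of all genes in a range of lengths and rise from -0.39 under 1000 bases to 0.12 above 3000; most coloured points lie below the line of their range.

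All 7 assembly chaperones were lower, with a median log2 fold change of -0.48. After correction 5 were lower (median -0.39), and 6 with quantile normalization or equal library totals. *Psmg1*, *Psmg2*, *Psmg3* and *Psmg4* pair up to build the alpha ring. *Psmg4* (ENSMUSG00000071451.3) had 311, 288 and 300 normalized counts in *Ctrl* against 147, 178 and 172 in *Tet iTKO* lines, and the lines of the groups stood far apart. Its log2 fold change was -0.86 (SE 0.12, limma adjusted p = 7.16e-07), and -0.39 after correction (limma adjusted p = 0.0123). Its partner *Psmg3* (ENSMUSG00000029551.6) had 338, 328 and 268 in *Ctrl* against 194, 180 and 193 in *Tet iTKO* lines, without overlap. The log2 fold change was -0.71 (SE 0.12, limma adjusted p = 1.14e-05), and -0.41 after correction (limma adjusted p = 0.00921). The other pair, *Psmg1* and *Psmg2*, had smaller fold changes. *Psmg1* had 446, 420 and 455 against 275, 368 and 318 (-0.47, limma adjusted p = 0.000424). *Psmg2* had 291, 335 and 334 against 236, 230 and 221 (-0.48, limma adjusted p = 0.00079). Neither group overlapped the other in these genes, and neither gene passed after correction (limma adjusted p = 0.382 and 0.361).

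*Psmd5*, *Psmd9* and *Psmd10* help to assemble the ATPase ring and leave it again. *Psmd10* (ENSMUSG00000031429.8, chromosome X), known as gankyrin, had the largest fall of all proteasome genes when all lines were used, from 149, 221 and 170 normalized counts in *Ctrl* to 96, 88 and 90 in *Tet iTKO* lines. The *Ctrl* lines spread widely, and the *Tet iTKO* lines lay close together below them. The log2 fold change was -0.95 (SE 0.17, limma adjusted p = 2.13e-05), and -0.58 after correction (limma adjusted p = 0.00813). Without *Ctrl* replicate 2 it was at -0.80 and *Psmg4* at -0.88, and with quantile normalization *Psme2b* was about level with it (both -0.97). *Psmd5* had 770, 906 and 752 against 591, 578 and 629, again without overlap, and its fall hardly moved with the correction (-0.43 before and -0.42 after, limma adjusted p = 4.91e-05 and 6.89e-05). *Psmd9* had 258, 310 and 314 against 235, 249 and 236 (-0.29, SE 0.11, limma adjusted p = 0.0465). The groups did not overlap, but of the 6 fits with a line left out only 1 called it, the fit without *Ctrl* replicate 1, and the adjusted p was up to 0.163 in the others. Put with the regulatory particle, these 3 genes left the core minus regulatory difference at -0.27.

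Of the 5 activators, 1 was called lower (20%, against 18.4% over all genes tested), and their median log2 fold change was -0.081. *Psme1* and *Psme2*, which together form the interferon-inducible cap, had fold changes of opposite sign, a difference that was not tested. *Psme1* had 309, 356 and 358 normalized counts in *Ctrl* against 358, 378 and 360 in *Tet iTKO* lines, with overlapping lines (0.10, SE 0.099, limma adjusted p = 0.457), and it was higher after correction (0.35, limma adjusted p = 0.00528). It overlaps *Emc9* on the opposite strand. *Psme2* had 182, 135 and 153 in *Ctrl* against 113, 93 and 93 in *Tet iTKO* lines, where the highest *Tet iTKO* line was below the lowest *Ctrl* line. It was the one activator called lower (-0.64, SE 0.17, limma adjusted p = 0.00252), and not after correction (-0.30, limma adjusted p = 0.2). Of the 788 stretches of 50 bases in *Psme2b*, 541 also occur in *Psme2*, so that unique alignment can drop or split their reads and both values are uncertain. *Psme2b* had 42, 24 and 24 against 24, 12 and 21 and did not pass (-0.64, SE 0.40, limma adjusted p = 0.227).

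The nuclear activator *Psme3* had 1120, 1011 and 1133 normalized counts in *Ctrl* against 1071, 968 and 1046 in *Tet iTKO* lines. *Psme4*, a single-chain cap, had 293, 341 and 308 against 333, 361 and 332, and the inhibitor *Psmf1* had 207, 318 and 274 against 261, 315 and 303. In all of them the groups overlapped. Their log2 fold changes were -0.081, 0.12 and 0.15 (SE 0.067, 0.10 and 0.13), none of which passed (limma adjusted p = 0.379, 0.369 and 0.362). The value of *Psmf1* rests on *Ctrl* replicate 1, without which it was -0.015.

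The immunoproteasome subunits, which replace catalytic beta subunits after interferon, were near the limit of detection or did not pass. *Psmb8* had 1 normalized count, in *Tet iTKO* replicate 1. *Psmb10* had 181, 160 and 174 in *Ctrl* against 176, 136 and 128 in *Tet iTKO* lines (-0.24, SE 0.15, limma adjusted p = 0.224), with overlapping lines, and *Psmb9* was not analysed here.

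Genes of the ubiquitin and proteasome pathway outside these names were taken from a list of 41, of which 40 were found and tested and *Paaf1* was not analysed here. Of the 40, 9 were lower, 5 higher and 26 did not pass, with a median log2 fold change of -0.010. These shares, 22.5% and 12.5%, were near the 18.4% lower and 16.4% higher over all genes. After correction 9 were lower and 5 higher, of which 6 and 2 had been called before it. Of the 6 genes of ubiquitin supply and activation, 3 were lower (50%) and none was higher in limma, although 1, *Uba6*, was higher at an unadjusted p under 0.05. *Ubb*, which encodes a chain of ubiquitins, had 2826, 2686 and 2809 normalized counts in *Ctrl* against 1918, 1875 and 1962 in *Tet iTKO* lines (-0.53, SE 0.051, limma adjusted p = 2.05e-10). *Rps27a*, a fusion of ubiquitin to a ribosomal protein, had 3889, 3476 and 3743 against 2238, 2416 and 2418 (-0.65, SE 0.051, limma adjusted p = 1.72e-12). Both separated the groups and were lower after correction too (corrected -0.38 and -0.19). The activating enzyme *Uba1* was at 0.018 on the log2 scale (limma adjusted p = 0.827).

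Among 15 factors bound to the proteasome, 3 were lower and 3 higher, each 20%, which is near the share over all genes. *Sem1*, a small lid subunit without a Psm name, had 405, 340 and 350 against 210, 253 and 221 (-0.68, SE 0.11, limma adjusted p = 8.03e-06), which did not pass after correction (limma adjusted p = 0.121). The shuttle factor *Rad23b* (-0.29, limma adjusted p = 0.000603) and the proteasome-bound thioredoxin *Txnl1* (-0.46, limma adjusted p = 5.48e-06) were lower as well. Higher were *Ecpas*, a scaffold that binds proteasomes, with 78, 62 and 48 against 108, 95 and 124 (0.81, SE 0.21, limma adjusted p = 0.00275), and the ubiquilins *Ubqln1* (0.16, limma adjusted p = 0.0498) and *Ubqln2* (0.46, limma adjusted p = 0.00266). The call of *Ubqln1* held only without *Ctrl* replicate 3 or *Tet iTKO* replicate 2 among fits with a line left out, and the adjusted p reached 0.254 without *Tet iTKO* replicate 1. *Adrm1*, the ubiquitin receptor of the base that has no Psm name, was at 0.0046 (limma adjusted p = 0.971). *Pomp*, the maturation factor of the core particle, was the 1 of 4 assembly and import factors called, with 1338, 1237 and 1258 against 1082, 1077 and 1152 (-0.21, SE 0.063, limma adjusted p = 0.00822). Of 6 genes of the VCP segregase, *Nsfl1c* (-0.30, limma adjusted p = 0.00127) and *Ubxn1* (-0.30, limma adjusted p = 0.000477) were lower, and neither passed after correction (-0.14 and -0.12, limma adjusted p = 0.164 and 0.158). The shares lower were 25% of the assembly and import factors and 33.3% of the VCP genes, against 18.4% over all genes tested.

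Regulators of proteasome transcription held 2 higher (22.2%) and no lower gene of 9 in limma, against 16.4% higher and 18.4% lower over all genes tested. None was lower at an unadjusted p under 0.05 either. After correction none was higher, also at an unadjusted p under 0.05, and 1 was lower, *Ddi2* (-0.39, limma adjusted p = 0.025), the protease that cleaves NFE2L1. That is 11.1% of the 9, against 13.3% lower over all genes after correction. *Nfe2l1*, which encodes a factor known to bind antioxidant response elements, whose letters are shown for *Psmb5* and *Psmb6*, had 497, 421 and 517 normalized counts in *Ctrl* against 554, 700 and 643 in *Tet iTKO* lines. The groups did not overlap, and the log2 fold change was 0.40 (SE 0.091, limma adjusted p = 0.000679). Its partner *Mafg* had 478, 410 and 519 against 633, 534 and 592 (0.32, SE 0.091, limma adjusted p = 0.00488), a call that was lost without *Ctrl* replicate 2 (limma adjusted p = 0.0685). After correction neither passed (0.15 and 0.046, limma adjusted p = 0.223 and 0.759). The activity of the factors, which depends on cleavage of the NFE2L1 protein, is not seen in these values.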

How the data were processed

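RNA came from 6 mESC lines, 3 of each group, and the labels gave the groups. The authors prepared Smart-Seq2 libraries, which keep no strand and tag no molecules, and sequenced paired reads of 50 bases. The authors used STAR for alignment, with unique hits retained, HTSeq 0.7.1 with its strand option on for gene counts and DESeq2 1.26.0 in R 3.5.2 for normalization, and the build named in the submitters' processing notes is mm9. The deposited values, taken here as a score, are normalized counts that had been rounded, so no count model was used. The reads behind them were not recovered, and their depth is therefore unknown. Within a group the squared differences between libraries were 2.59 to 3.46 times their summed values, and none was thus a repeat of another.

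Symbols, transcript lengths and GC content came from GENCODE M21 (GRCm38), which matched 20775 of 22380 identifiers, and promoters from RefSeq (GRCm38.p6). Length and GC content were taken from each gene's longest protein-coding transcript, or its longest transcript where none was coding. The group term was tested by limma 3.58.1 under R 4.3.3, with lmFit and a trended eBayes, on values logged as log2(normalized count + 1). Genes averaging under 10 were left out, and p-values were adjusted by Benjamini-Hochberg over all genes tested. Fold changes on this scale understate those of genes with few reads. With 3 lines a group, p-values measure the spread between lines. The correction fitted each library's deviations from the gene means by loess (span 0.3) on transcript GC content and log2 length, and subtracted the fit. Python 3.11.15 served for tables and plots (pandas 2.3.3, matplotlib 3.10.9 and NumPy 2.4.6), and the fits were tested on simulated data. The genes, lists, markers and tests were chosen with earlier results of these data known. Values in each line are given for the catalytic subunits, the 6 largest falls among called genes (no gene was called higher), *Psma8*, *Psmb11*, the regulators and the pathway genes called, except for some pathway genes given by their fold change. *Uba6*, *Uba1*, *Ddi2* and *Adrm1* and the cell type markers named fall outside this rule and were named after their values were seen. Values of some listed genes are not reported here. Alternatives changed the pseudocount, filter, scaling, variance trend, block, correction, fold threshold and lines used. Other assays were not analysed here.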

Additional observations from a re-analysis of the deposited data

How the results depend on the processing

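Against 35 proteasome genes called lower with all lines, 28 to 36 were called lower with other pseudocounts, filters and scalings, without the variance trend and with a block for the replicate number, and 32 to 34 in fits without single lines. The exceptions were the correction for GC content and length (19 lower, 2 higher), the correction with a replicate block (20 lower, 3 higher) and a required log2 fold change of 0.5 (14 lower). Equal library totals and quantile normalization each called 2 genes higher, *Psmd3* and *Psmd11*, and 9 genes of the pathway list higher instead of 5. Without the variance trend 5 instead of 9 pathway genes were lower, and without single lines 3 to 6 were higher, 3 without *Ctrl* replicate 2. Over all genes, 47.2% of calls were higher, against 61.9% with equal library totals. The core minus regulatory difference went from -0.28 to -0.11 under the correction, with or without the replicate block, and stayed between -0.30 and -0.23 under the other alternatives. Without genes that overlap another listed gene, 30 of 38 were lower; this alternative and the comparison by length were chosen after seeing the data. The block called 36 genes lower; lines with the same replicate number did not deviate together (correlations 0.00071, -0.0054 and -0.0031), and not every line correlated best with its own number, so the numbers do not pair the lines.

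Signs changed for genes near 0. With equal library totals *Psmb2* was at 0.0097 and *Psme3* at 0.0040, and with quantile normalization *Psmb2* was at 0.033 and *Psmc1* at 0.017. Under the correction, with or without the replicate block, *Psma1* was at 0.0037, *Psmb2* at 0.34, *Psmc1* at 0.11, *Psmc5* at 0.11 and *Psmd3* at -0.023. *Psmf1* ranged from -0.015 to 0.29 when single lines were left out. The cause of these shifts was not tested. Standard errors were largest for *Psme2b* (0.40), *Psme2* and *Psmd10* (both 0.17) and *Psma8* (0.15), genes with few counts, which limits what could be called.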
